A study of Mus musculus with 6 samples.

Results

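Chemokines are small secreted proteins that direct the movement of leukocytes through G protein-coupled receptors on the target cell. The gene list described here holds 10 chemokine ligands known from myeloid cells, Ccl2, Ccl3, Ccl4, Ccl5, Ccl6, Ccl9, Cxcl1, Cxcl2, Cxcl10 and Ppbp, out of 19937 mouse genes measured. A gene entered through probe sets annotated to its symbol alone, and each of the 10 had 1 such probe set. RNA of granulocytes from C57BL/6J mice was hybridised to 6 Mouse Gene 1.0 ST arrays from Affymetrix, of which 3 carried cells labelled caffeine-plus and 3 carried cells labelled caffeine-minus. Caffeine inhibits SMG1, a kinase needed for nonsense-mediated mRNA decay, and the series asked which transcripts build up when that decay is inhibited. According to the treatment protocol, cultures received 15 mM caffeine for 4 hours, were washed, and then spent 4 hours in 2 µg/ml actinomycin D, a blocker of transcription, with caffeine in the caffeine-plus group and without it in the caffeine-minus group. Read this way, both groups had an initial exposure to caffeine, and both had actinomycin D. The source label of the caffeine-minus samples says that they were not treated with caffeine, and the protocol does not settle this. The labels do not state how the granulocytes were purified or grown, the age of the animals, or whether replicates were separate animals or cultures. The p-values therefore reflect only variation among these 6 arrays, part or all of which could be technical.

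Chemokines are named for the spacing of their first conserved cysteines, which are adjacent in the CC family and separated by 1 residue in the CXC family. In mice, Cxcl1, Cxcl2 and the protein made from Ppbp recruit neutrophils through the receptor Cxcr2, Cxcl10 attracts activated T and NK cells through Cxcr3, and Ccl2 attracts monocytes through Ccr2. Ccl3, Ccl5, Ccl6 and Ccl9 signal through Ccr1. Many of these genes are switched on within hours of an inflammatory stimulus, and several give mRNAs with AU-rich elements that shorten their life.

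In the caffeine-plus cells 6 of the 10 ligand genes were lower (Ccl9, Ccl3, Ppbp, Ccl5, Ccl6 and Ccl4), 2 were higher (Cxcl10 and Ccl2), and 2 did not pass the test (Cxcl1 and Cxcl2). The test was limma over all genes, called at a Benjamini-Hochberg adjusted p below 0.05, and each difference is given as the caffeine-plus mean less the caffeine-minus mean in log2 units, with its standard error and 3 arrays per group. Of all genes 37.9% were called, 21.7% as lower and 16.2% as higher, so the share of ligands called higher was near that of all genes, while the share called lower was larger. The same 6 genes had no overlap between the groups on the lower side (26.3% of all genes did) and the same 2 had none on the higher side (19.5% of all genes did). A change of at least 2-fold was seen in 3 ligands that fell, against 3.15% of all genes, and in 1 that rose, against 2.63%. The median difference was -0.43 for the 10 ligands and -0.04 for all genes. The median size of the difference, without its sign, was 0.81 in the 10 ligands and 0.17 over all genes. These all-gene shares and medians include dim genes and were not matched to the levels of the ligands. Of the 6 CC members 5 fell and 1 rose, with a median of -0.70, whereas of the 4 CXC members 1 fell and 1 rose, with a median of 0.04. The difference between the families was not tested.

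**Figure D1:**
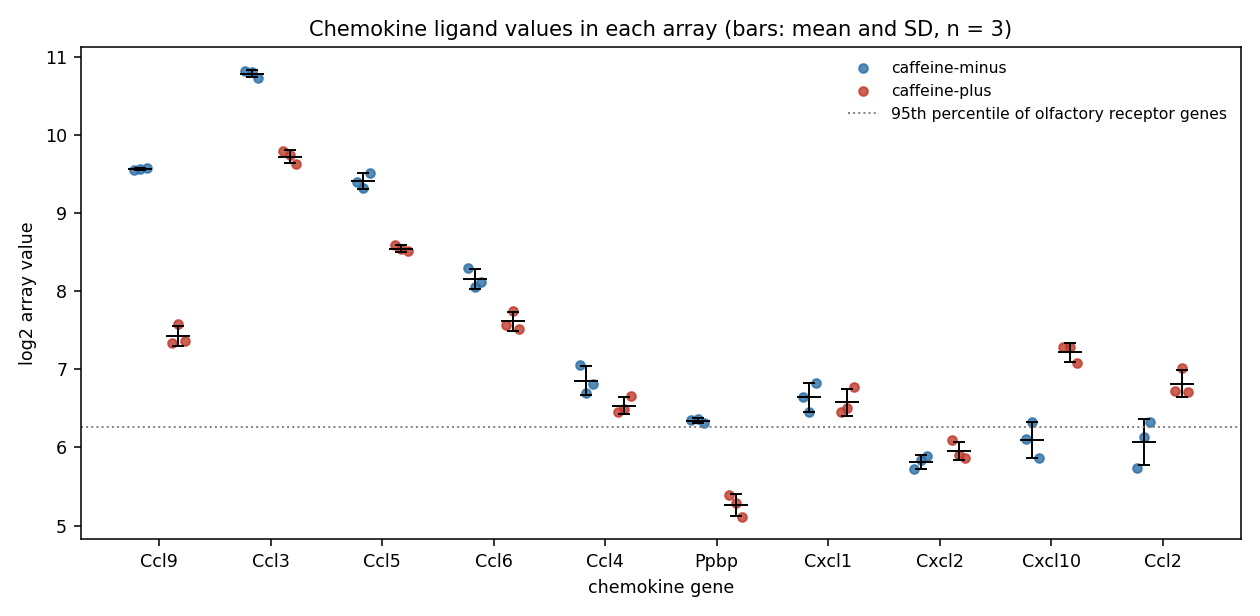
Log2 value of each of the 10 chemokine ligand genes (x axis) in each of the 3 caffeine-minus arrays (blue) and 3 caffeine-plus arrays (red), with the mean and SD of each group as black bars. The groups lie apart in 8 genes and overlap in Cxcl1 and Cxcl2. The dotted line is the 95th percentile of olfactory receptor genes (6.26), a guide to dim signal.

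The 6 CC genes lie on chromosome 11 and the 4 CXC genes on chromosome 5, both known sites of chemokine gene clusters. Promoter sequences from RefSeq (build GRCm38.p6) were at hand for 7 of the 10, and the 250 bases before the annotated start of 5 of them are shown, because they set the pair without a call (Cxcl1 and Cxcl2) beside the largest rise (Cxcl10) and the falls of Ccl9 and Ccl3. Capitals mark matches, on either strand, to the NF-kappaB consensus, the interferon-stimulated response element, the AP-1 motif TGANTCA and the TATA motif TATAAA. A cAMP response element, TGACGTCA, was searched too and matched in none of the 7 windows.
Cxcl1 (chr5:90890995-90891244, plus strand): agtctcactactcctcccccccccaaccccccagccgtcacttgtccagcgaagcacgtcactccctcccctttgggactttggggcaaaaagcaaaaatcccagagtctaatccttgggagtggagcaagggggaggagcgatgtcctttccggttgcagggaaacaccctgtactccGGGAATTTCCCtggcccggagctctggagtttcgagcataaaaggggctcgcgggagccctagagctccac
Cxcl2 (chr5:90903649-90903898, plus strand): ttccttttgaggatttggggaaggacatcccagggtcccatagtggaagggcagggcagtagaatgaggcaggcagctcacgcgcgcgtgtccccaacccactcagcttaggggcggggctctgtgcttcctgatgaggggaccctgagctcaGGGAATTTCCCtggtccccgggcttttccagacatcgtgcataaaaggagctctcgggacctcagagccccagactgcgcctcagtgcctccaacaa
Cxcl10 (chr5:92348890-92349139, minus strand): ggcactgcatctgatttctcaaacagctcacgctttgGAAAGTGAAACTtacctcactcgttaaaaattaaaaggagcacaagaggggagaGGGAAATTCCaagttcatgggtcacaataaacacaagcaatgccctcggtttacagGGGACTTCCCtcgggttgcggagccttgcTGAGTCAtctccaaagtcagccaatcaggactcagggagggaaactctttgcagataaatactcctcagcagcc
Ccl9 (chr11:83578637-83578886, minus strand): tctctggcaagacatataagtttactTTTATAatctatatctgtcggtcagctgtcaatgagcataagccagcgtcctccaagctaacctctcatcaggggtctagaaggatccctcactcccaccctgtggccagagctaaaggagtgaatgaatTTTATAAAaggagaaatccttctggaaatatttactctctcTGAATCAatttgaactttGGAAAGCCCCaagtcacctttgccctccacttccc
Ccl3 (chr11:83649379-83649628, minus strand): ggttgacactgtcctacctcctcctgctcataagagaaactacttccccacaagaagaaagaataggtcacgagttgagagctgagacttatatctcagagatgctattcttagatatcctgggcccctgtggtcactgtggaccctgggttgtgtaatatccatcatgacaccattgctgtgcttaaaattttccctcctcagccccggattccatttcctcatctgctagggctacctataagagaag

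Cxcl1, Cxcl2, Cxcl10 and Ccl9 held a match to the NF-kappaB consensus, and the windows of Ccl3, Ccl6 and Ppbp did not hold these letters. Over 32851 promoter windows of the same length, 3.9% held one. In Cxcl1 and Cxcl2 matches on both strands overlap in the same run of letters, GGGAATTTCCC, which ends 61 bases before the start of Cxcl1 and 87 before that of Cxcl2. By local alignment score this pair ranked first among the 7 windows, with 71.9% identity over 121 aligned positions, while some other pairs had higher identity over shorter stretches. Cxcl10 had separate matches, GGGAAATTCC and GGGACTTCCC, and Ccl9 had one on the opposite strand, GGAAAGCCCC as printed, 26 to 35 bases before its start. Cxcl10 was the only one of the 7 windows with the interferon-stimulated response element, which 0.42% of all windows held. AP-1 letters stood in Cxcl10, Ccl9 and Ppbp (6.75% of all windows), and TATAAA stood in Ccl9 and Ppbp (12.4% of all windows). Such matches describe the sequence only, since binding was not measured.

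Ccl9 was the member with the largest difference. Its product, MIP-1 gamma, is a Ccr1 ligand made by myeloid cells of the mouse. The caffeine-minus arrays read 9.55, 9.56 and 9.58, and the caffeine-plus arrays read 7.34, 7.58 and 7.36. The 2 groups were thus 1.97 apart at their nearest arrays. Ccl9 was 4.4-fold lower (log2 difference -2.14 ± 0.08, limma adjusted p = 5.2e-11), which placed it 34th from the bottom when all 19937 genes were ranked by their difference. At least 4-fold lower were 56 genes in all.

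Ccl6, a close relative that also acts through Ccr1 and whose gene lies close to Ccl9 on chromosome 11, fell by less. Its values were 8.30, 8.05 and 8.12 in the caffeine-minus arrays and 7.57, 7.75 and 7.52 in the caffeine-plus arrays. All caffeine-plus values lay below all caffeine-minus values, by 0.30 at the nearest. Ccl6 was 1.46-fold lower (-0.54 ± 0.09, limma adjusted p = 0.0002). The 95% intervals of the Ccl9 and Ccl6 differences, -2.31 to -1.96 and -0.75 to -0.34, did not overlap. The reference span of Ccl6 overlaps that of E230016K23Rik, a gene of unknown role named here for that overlap, which differed by -0.27 ± 0.11 (limma adjusted p = 0.069).

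Ccl3 (MIP-1 alpha) and Ccl4 (MIP-1 beta) are neighbouring genes usually induced together in activated myeloid cells. Ccl3 read 10.82, 10.81 and 10.73 in the caffeine-minus arrays and 9.79, 9.75 and 9.63 in the caffeine-plus arrays. Ccl3 was 2.09-fold lower (-1.06 ± 0.06, limma adjusted p = 2e-09), with replicate SDs of 0.05 and 0.08. Ccl4 read 7.06, 6.70 and 6.81 without caffeine in the block and 6.46, 6.49 and 6.66 with it, and the nearest arrays were only 0.03 apart. Ccl4 was 1.25-fold lower (-0.32 ± 0.11, limma adjusted p = 0.033). The Ccl4 call depended on single arrays, with a limma adjusted p of 0.13 when caffeine-plus array 1 was left out, 0.10 when caffeine-plus array 2 was, and 0.17 when caffeine-minus array 1 was. It was also lost after quantile normalization (0.064), with arrays centred on their medians (0.060) and when every probe set was tested (0.089), and its adjusted p ran from 0.017 to 0.17 over 16 alternative settings. The reference spans of Ccl3 and Ccl4 overlap, and whether a probe of either lies in the shared stretch was not tested.

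Ccl5 (RANTES), which attracts T cells, monocytes and eosinophils, read 9.40, 9.32 and 9.52 in the caffeine-minus arrays and 8.59, 8.54 and 8.51 in the caffeine-plus arrays. It was lower in each caffeine-plus array than in any caffeine-minus array. Ccl5 was 1.82-fold lower (-0.87 ± 0.07, limma adjusted p = 1.2e-07). The span of Ccl5 overlaps that of Gm32650, which was not measured on its own. T and NK cells are a known source of Ccl5. Of 13 measured T and NK markers 1 fell (Nkg7, -0.35 ± 0.08) and none rose, 9 lay below the 95th percentile of olfactory receptor genes, and the mean log2 level of the list ran from 5.83 to 5.99 in caffeine-plus and from 5.85 to 5.90 in caffeine-minus arrays.

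Ccl2 (MCP-1), the main monocyte attractant acting on Ccr2, was the one CC member that rose. The caffeine-minus arrays read 5.74, 6.14 and 6.32, and the caffeine-plus arrays read 6.72, 7.02 and 6.71. The groups were 0.39 apart at their nearest, although the caffeine-minus arrays had a wider spread (SD 0.30) than either group of any other member. Ccl2 was 1.68-fold higher (0.75 ± 0.14, limma adjusted p = 0.00038).

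Cxcl10 (IP-10) rose most among the 10. It read 6.11, 6.32 and 5.86 in the caffeine-minus arrays and 7.29, 7.28 and 7.08 in the caffeine-plus arrays, with 0.75 between the nearest arrays. Cxcl10 was 2.17-fold higher (1.12 ± 0.12, limma adjusted p = 1.4e-06), at rank 361 of all genes ordered from the largest rise. The caffeine-minus means of Cxcl10 (6.10 ± 0.23, SD, n = 3) and Ccl2 (6.07 ± 0.30, SD, n = 3) lay below 6.26, the 95th percentile of 1027 olfactory receptor genes, which serve as a guide to signal with little transcript, so both fold changes may be understated. Cxcl10 lies within the span of Art3, an ADP-ribosyltransferase gene, which went the other way. Art3, named here after its value was seen, was 2.63-fold lower (-1.40 ± 0.12, limma adjusted p = 1.5e-07).

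Ppbp encodes the platelet basic protein, from which the Cxcr2 ligand Cxcl7 is cut. It read 6.35, 6.37 and 6.31 in the caffeine-minus arrays and 5.39, 5.29 and 5.11 in the caffeine-plus arrays. The caffeine-minus arrays agreed closely (SD 0.03) and stood 0.92 above the nearest caffeine-plus array. Ppbp was 2.11-fold lower (-1.08 ± 0.11, limma adjusted p = 5.7e-07), and its caffeine-plus mean of 5.26 lay below 6.26, in the range of olfactory receptor genes. Platelets and megakaryocytes are its classical source. Of 8 measured markers of these cells 3 fell and 5 did not pass, with a mean log2 level of 6.82 to 6.92 in caffeine-plus and 7.20 to 7.34 in caffeine-minus arrays. The receptor gene Clec1b changed by -1.60 ± 0.11, Treml1 by -0.60 ± 0.10 and Itgb3 by -0.40 ± 0.09, whereas Gp5 (-0.23 ± 0.11) and Pf4 (-0.12 ± 0.13), the platelet factor 4 gene close to Ppbp on chromosome 5, did not pass. Pf4 was named outside the naming rule, after its value was seen. The part of these cells in the Ppbp result was not tested, and in bulk RNA fewer cells of a type and less RNA per cell cannot be told apart.

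Cxcl1 (KC) and Cxcl2 (MIP-2), whose promoters share the NF-kappaB letters printed above, are inducible neutrophil attractants. Cxcl1 read 6.65, 6.45 and 6.82 in the caffeine-minus arrays and 6.46, 6.50 and 6.77 in the caffeine-plus arrays. Its groups overlapped, with a difference of -0.06 ± 0.12 (limma adjusted p = 0.77, 95% interval -0.31 to 0.19). Cxcl2 read 5.72, 5.84 and 5.89 against 6.09, 5.90 and 5.87, again with overlap, and differed by 0.14 ± 0.11 (limma adjusted p = 0.38, 95% interval -0.09 to 0.37). Both intervals leave out a 2-fold change in either direction on this scale. Cxcl2 lay below 6.26 in every array, so a change in it would be understated. Cxcl3, a further Cxcr2 ligand, named here outside the naming rule and after its value was seen, differed by -0.12 ± 0.11 (limma adjusted p = 0.46).

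**Figure D2:**
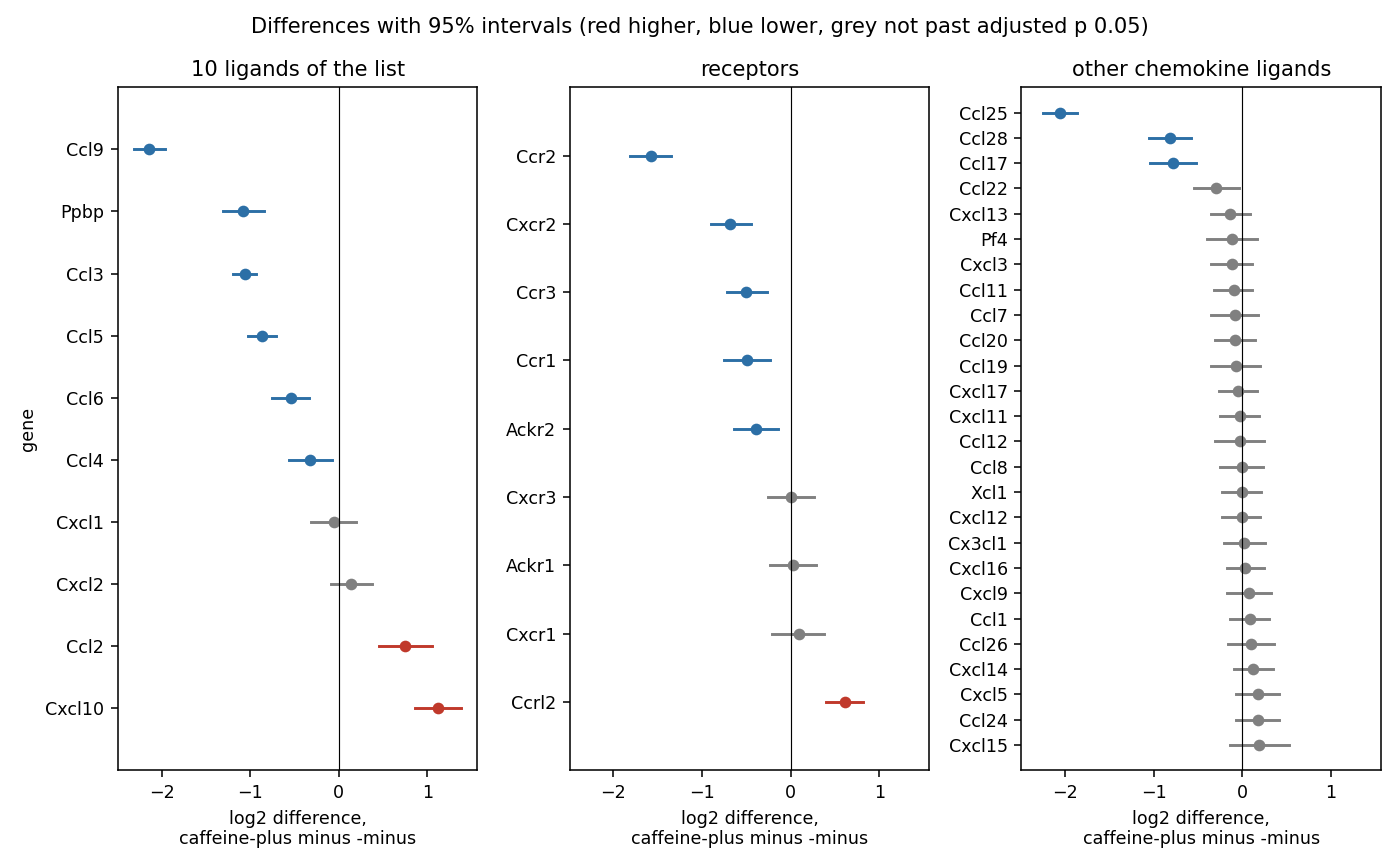
Log2 difference, caffeine-plus minus caffeine-minus, with its 95% interval for the 10 ligands, 9 receptors and 26 other chemokine ligands (1 gene per line, 3 arrays per group). Ccl9 (-2.14) and Ccl25 (-2.06) stand apart on the lower side, Cxcl10 (1.12) and Ccl2 (0.75) on the higher side, and most other ligands lie near 0.

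Other chemokine ligands were mostly without a change. Of 28 listed, 26 were measured, of which 3 fell, none rose and 23 did not pass, with a median of -0.03, and 18 of the 26 lay below the 95th percentile of olfactory receptor genes. The falls were in Ccl25, a thymus and gut chemokine (4.16-fold lower, -2.06 ± 0.09), Ccl28, a mucosal chemokine (1.76-fold), and Ccl17, a Ccr4 ligand (1.72-fold). A second, dimmer probe set of Ccl25 also fell (-1.40 ± 0.11). Ccl22, the other Ccr4 ligand, differed by -0.30 ± 0.12 (limma adjusted p = 0.066). Taking the 36 ligands measured in all, 2 rose and 9 fell, where 16.2% of all genes were called higher and 21.7% lower. The counts of the other gene lists are to be read beside the same shares.

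The 9 chemokine receptor genes analysed here had 5 falls, 1 rise and 3 without a call, with a median of -0.39. Ccr2, the receptor of Ccl2, was 2.98-fold lower (-1.58 ± 0.11, limma adjusted p = 1.2e-08), with means of 6.45 in caffeine-plus and 8.03 in caffeine-minus arrays. The ligand and its receptor thus differed in opposite directions. Cxcr2, the receptor of Cxcl1, Cxcl2 and the Ppbp product, was 1.6-fold lower, and Ccr1, the receptor of Ccl3, Ccl5, Ccl6 and Ccl9, was 1.4-fold lower. The Ccl5 receptor Ccr3 was 1.41-fold lower and the scavenging receptor Ackr2 1.31-fold lower. Both group means of Ccr3 and of Ackr2 lay below 6.26, as did those of Cxcr1 and Ackr1, so 4 of the 9 receptors were dim and their differences may be understated. Ccrl2, a non-signalling relative, was 1.53-fold higher. Its caffeine-minus mean (6.07) and the caffeine-plus mean of Ccr1 (6.05) also lay below 6.26, so these differences may be understated too. Cxcr3, the receptor of Cxcl10, differed by -0.00 ± 0.12, Cxcr1 by 0.09 ± 0.14 and Ackr1, a chemokine-binding receptor of red cells and endothelium, by 0.03 ± 0.12, none of which passed.

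**Figure D3:**
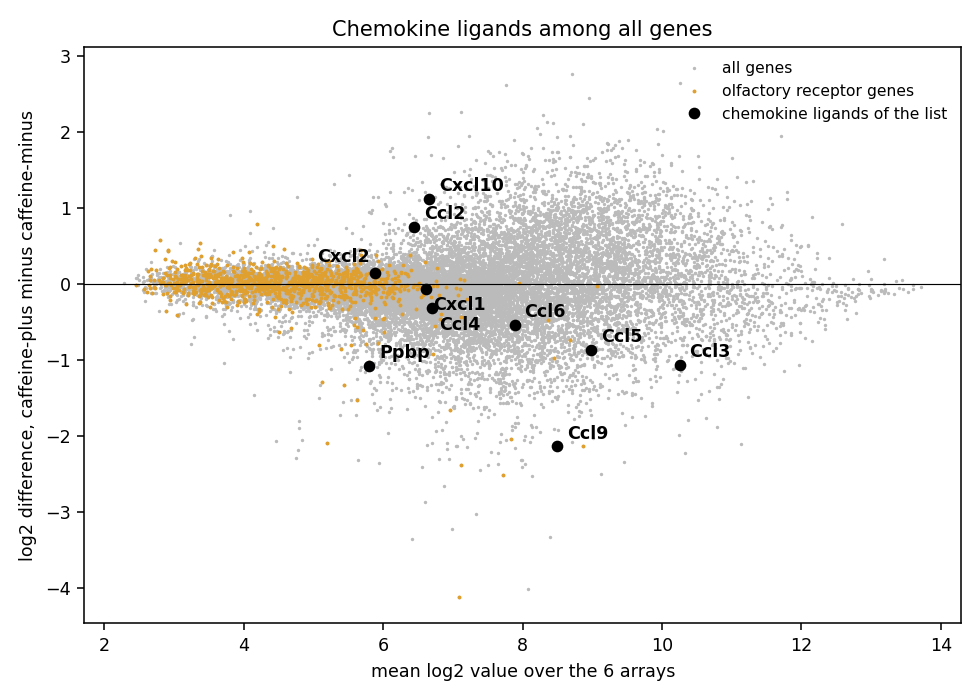
Mean log2 value over the 6 arrays (x axis) and log2 difference, caffeine-plus minus caffeine-minus (y axis), for all 19937 genes (grey), 1027 olfactory receptor genes (orange) and the 10 chemokine ligands (black). Ccl9 lies at the lower edge of the cloud, and Ppbp and Cxcl2 lie among the olfactory receptor genes in mean value.

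NF-kappaB is the transcription factor family that drives most inflammatory chemokine genes. Of 16 measured genes of the family, its regulators and its known targets, 9 rose, 3 fell and 4 did not pass, with a median of 0.32. The subunit gene Rel was 2.08-fold higher, the kinase gene Ikbkb 1.97-fold, and the inhibitor genes Nfkbib and Nfkbia 1.95-fold each. The falls were in the subunit gene Rela (-0.31), Birc3 (-0.33) and Ikbkg (-0.31), named after their values were seen. Interferon induces Cxcl10, and of 14 measured interferon-induced genes 4 rose, 3 fell and 7 did not pass, with a median of 0.06. The antiviral gene Mx2 was 3.47-fold higher, and the regulators Irf1 and Irf7 were 1.75-fold and 1.37-fold higher, while a dimmer Irf1 probe set did not pass (0.27 ± 0.12, limma adjusted p = 0.14). Cmpk2 was 1.32-fold higher. The caffeine-minus mean of Mx2 (5.22) lay below 6.26, and 6 of the 14 genes had a mean over all arrays below it. These fold changes may therefore be understated too. By the protocol both groups spent 4 hours in actinomycin D. Whether synthesis or decay of RNA differed was not tested, for the ligands or for these lists.

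Proteins that bind AU-rich elements and related decay motifs control how long chemokine mRNAs last. Of 11 measured genes for such proteins 6 rose, 1 fell and 4 did not pass, with a median of 0.19. The roquin gene Rc3h1 was 1.76-fold higher, Zfp36l2 1.56-fold, Hnrnpd (AUF1) 1.37-fold and Tial1 1.27-fold. The fall was in Tia1 (-0.44), named after its value was seen. Other inflammatory genes known for short-lived mRNAs split, with 6 of 14 higher, 3 lower and a median of 0.05. Ptgs2, the cyclooxygenase-2 gene, was 2.16-fold higher, Il1a 1.97-fold, the oncostatin M gene Osm 1.82-fold and Il1b 1.56-fold. The falls were in Csf1 (-0.47), Tnf (-0.41) and Il1rn (-0.34), named after their values were seen.

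**Figure D4:**
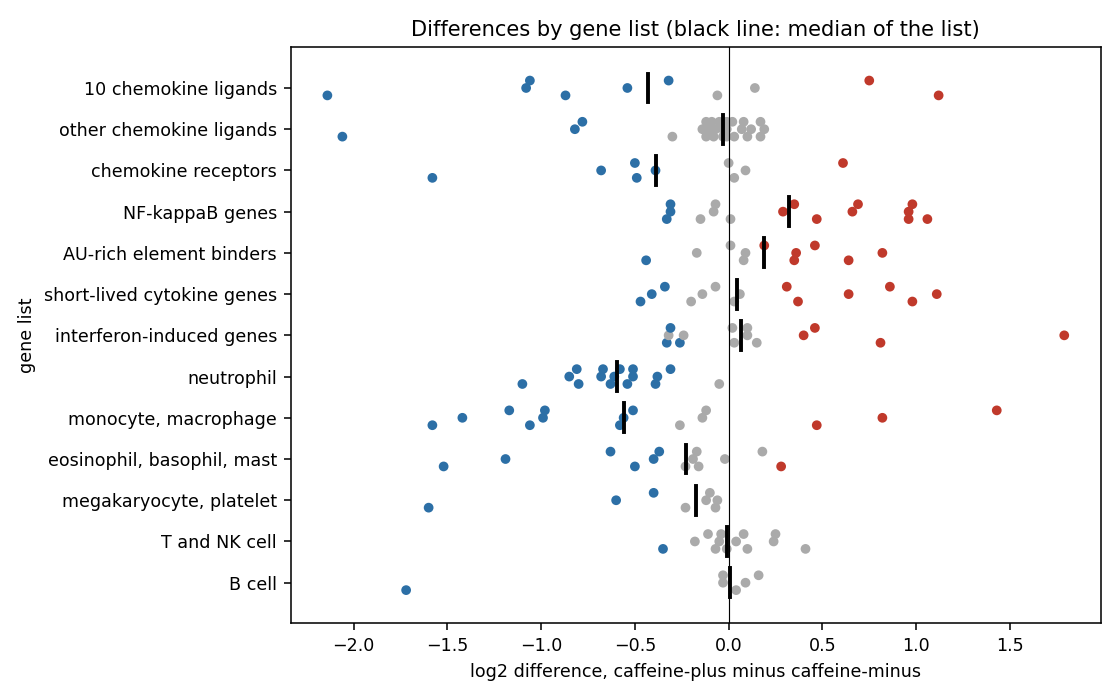
Log2 difference, caffeine-plus minus caffeine-minus, for each gene (point) of the 10 chemokine ligands, 6 related lists and 6 marker lists, red where higher, blue where lower and grey where not past the threshold, with the median of each list as a black line. The 10 ligands (median -0.43) spread over a wider range than the other chemokine ligands (median -0.03).

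Markers of the labelled cell type were present, with all 16 neutrophil markers above the 95th percentile of olfactory receptor genes. Of these 15 fell and 1 did not pass, Retnlg (-0.05), named after its value was seen. The median was -0.59, and their mean log2 level ran from 9.41 to 9.46 in caffeine-plus and from 9.96 to 10.11 in caffeine-minus arrays. Elane, the neutrophil elastase gene, was 2.14-fold lower. The falls of Ccl9, Ccl3, Ccl5 and Ccl6 thus came with lower values of neutrophil markers, and the part of this in the ligand results was not tested.

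Monocytes and macrophages also make Ccl2, Ccl3, Ccl4, Ccl6 and Ccl9. Of 15 measured markers of these cells 9 fell and 3 rose, with a median of -0.56 and mean log2 levels of 7.46 to 7.47 in caffeine-plus and 7.81 to 7.96 in caffeine-minus arrays, and 3 markers lay below the 95th percentile of olfactory receptor genes. Ly86 was 2.67-fold and Ctss 1.97-fold lower, whereas Cd68 was 1.77-fold and Klf4 2.69-fold higher. Eosinophil, basophil and mast cell markers had 6 falls and 1 rise of 13, with mean levels of 7.59 to 7.61 against 7.92 to 8.01. The basophil protease gene Mcpt8 fell furthest of these (2.88-fold lower). Mcpt8 had means of 9.76 in caffeine-plus and 11.28 in caffeine-minus arrays, and Prg2 of the same list had 11.45 and 12.09. Both lay above the mean level of the neutrophil list, while 3 of the 13 lay below the 95th percentile of olfactory receptor genes. B cell markers had 1 fall (Cd79b, 3.29-fold) of 6, with mean levels of 5.75 to 5.96 against 6.10 to 6.14. The part of these cells in the ligand results was not tested.

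For each ligand past the threshold, the gene with the most similar profile over the 6 arrays was found by the Euclidean distance of values centred on each gene's mean. Ccl9 was nearest to S100a6, which fell by 2.22 (distance 0.20), and Ccl5 to the respiratory chain gene Ndufa2 (distance 0.07). The profile nearest to that of Ppbp was Ccl3, itself a member (distance 0.09), while Ccl3 was nearest to the kinetochore gene Cenph (distance 0.05). Ccl6 was nearest to Ctrl (0.09), Ccl4 to Spout1 (0.06) and Cxcl10 to Cramp1l (0.09), where the values in brackets are distances. Ccl2 was nearest to Smg9, a gene of the SMG1 kinase complex (distance 0.19). Each nearest gene had a log2 difference close to that of its ligand (0.78 for Smg9, 0.75 for Ccl2). This follows from choosing it by distance over the same arrays and is not a separate result. Whether such pairs share more than a similar difference was not tested.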

How the data were processed

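The deposited table holds 34760 probe sets by 6 arrays. Its values (1.90 to 13.98) were treated as log2 values that the authors had already normalized; no header states the unit, and the summarization and normalization are not stated in the labels. They are relative and cannot show a change in total mRNA per cell. Array medians ran from 6.49 to 6.60. Per the labels' protocols, 300 ng total RNA was labelled. Without detection p-values a low value does not show absence, and the number of arrays limits the precision.

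In the platform annotation 21640 probe sets have 1 gene symbol, 1321 have several and 11799 are unlisted; 21553 matched RefSeq GRCm38.p6 by gene identifier, for current symbols. The brightest probe set stood for a gene. The comparison used limma 3.58.1 under R 4.3.3 (eBayes with trend, two-sided, Benjamini-Hochberg over 19937 genes, no dim filter). In simulated data on those 19937 genes, with 200 of them changed, it recovered 43% of changes of 0.5 and 91% of changes of 1 (log2). Of its calls there, 4.29% were false. The real comparison called a far larger share of genes (37.9%), so these rates need not hold for it. Promoters were aligned with Biopython 1.88.

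The members and gene lists were chosen with earlier results of these data known. Named genes are the members, their receptors, up to 4 genes with the smallest p in each list, and the nearest profile of each called member; a gene named otherwise is marked. Replicate numbers were not taken to pair the arrays. Alternatives were a replicate block, quantile normalization, median centring, 2 dim filters, averaged probe sets, every probe set, other eBayes settings, array weights and each array left out.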

Additional observations from a re-analysis of the deposited data

How the results depend on the processing

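Over 16 alternative settings, 8 of the 10 ligands kept the direction and the side of the threshold that they had at first in every setting that tested them, and the exceptions were Ccl4, whose lost calls are given with its values, and Cxcl1. Cxcl1, which never passed, was 0.00 after quantile normalization, and -0.16 to 0.03 with each array left out, the highest without caffeine-minus array 3. With each array left out in turn, 2 ligands were higher each time and 5 to 6 were lower. Among genes above the median level 0 ligands were higher, because Ccl2 and Cxcl10 are dimmer than that and were not tested there. Over all genes, leaving out an array gave 2880 to 3238 genes higher and 3798 to 4364 lower. Over all 16 settings the counts ran from 2880 to 4820 and from 3496 to 5626. The highest counts, 4820 and 5626, are of probe sets, since that setting tested all 34760 of them. The lowest count of falls, 3496, came from the filter to genes above the median level. With arrays centred on their medians 3674 genes were higher and 3749 lower, so 49.5% of calls were higher in place of 42.7%. With the replicate number as a block, 2 ligands were higher and 6 lower, and 3388 genes were higher and 4660 lower. Same-numbered arrays deviated together at r = -0.03, 0.19 and 0.29 (Pearson, across genes) and differently numbered arrays of the other group at -0.28 to 0.13. Of the same-numbered values, -0.03 showed no correlation, while 0.19 and 0.29 lay above 0.13. Whether some numbers mark a shared origin was therefore not settled, and the main fit did not pair the arrays. Dim signal limits what can be read from Ppbp, Cxcl2, Ccl2 and Cxcl10.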
